A study of Homo sapiens with 7 samples.

Results

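Interferon-stimulated genes and their regulators were followed in RNA-Seq data of silenced esophageal squamous cell carcinoma (ESCC) cells. The set is a list of 41 named genes chosen for their known roles, of 62382 genes and unassigned transcripts in the files: 4 sensors of foreign nucleic acid, 4 transcription factors, 4 genes of the ISG15 system and its feedback inhibitor, 3 genes of the PARP9 complex, 12 effectors that bind or degrade RNA and 14 GTPases, membrane proteins and other effectors. The list was drawn up with earlier results of these data known, so its counts set beside those of all features are descriptions only. All 41 had at least 10 estimated counts in at least 1 library, the minimum that 30559 features passed. The cells were TE5 and KYSE140, 2 established ESCC lines, each carrying a lentiviral short hairpin RNA (shRNA): a scramble control, 1 against TP63 (shTP63), 1 against SOX2 (shSOX2) or, in TE5 only, 1 against the long noncoding RNA CCAT1 (shCCAT1). TP63 and SOX2 are transcription factors of squamous cells, and the silenced cells were made to find which genes depend on them. Each condition of a line is a single library (4 of TE5, 3 of KYSE140) and 1 shRNA per target, so effects of a target and off-target effects of its hairpin cannot be told apart, and the labels name no treatment with interferon.

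Type I and type III interferons are secreted when RNA or DNA sensors meet foreign nucleic acid. Their receptors activate the kinases JAK1 and TYK2, which phosphorylate STAT proteins, STAT2 among them. STAT2 and IRF9 are parts of the complex ISGF3, which binds interferon-stimulated response elements (ISRE) in the promoters of antiviral genes. Many of the induced proteins are themselves sensors or factors of the pathway, while USP18 shuts the receptor off. Epithelial tumour cell lines are known to differ widely in how strongly they transcribe this program without added interferon.

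The promoters of the members are shown first, because the core of the ISRE is what most of them share in sequence. RefSeq promoter windows (GRCh38.p14, 250 bases before to 50 after each gene's start) held 33 of the 41 members, and IFIT2, DHX58, IRF7, USP18, OASL, OAS2, MX2 and TRIM22 had no entry. A core was counted as TTTC, 2 bases of any kind and TTTC on either strand, with overlapping matches counted apart. It was present in 24 of the 33 members (72.7%), against 1195 of 27305 genes of the table (4.38%). The other element searched, GAS, the element of genes induced by interferon gamma (TTC, 3 bases of any kind, GAA, a pattern that reads the same on both strands), was present in 12 of 33 members (36.4%) and in 9.38% of all genes. The stretches below are printed 5′ to 3′ on the strand of the gene and end before its start, with each core in capitals. They were picked to show members whose core lies close to the start (PARP14, PARP9), members with overlapping or paired cores (ISG15, BST2, IFIT1, IFIT3) and members with a single one (ISG20, SAMD9).
ISG15: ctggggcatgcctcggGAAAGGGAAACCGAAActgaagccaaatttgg
BST2: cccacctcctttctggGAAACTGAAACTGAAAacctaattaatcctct
IFIT1: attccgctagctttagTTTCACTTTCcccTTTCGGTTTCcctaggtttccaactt
IFIT3: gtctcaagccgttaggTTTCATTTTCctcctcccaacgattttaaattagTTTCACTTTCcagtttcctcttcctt
ISG20: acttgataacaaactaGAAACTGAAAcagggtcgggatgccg
SAMD9: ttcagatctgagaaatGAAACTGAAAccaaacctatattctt
PARP14: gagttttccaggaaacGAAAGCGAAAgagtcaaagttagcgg
PARP9: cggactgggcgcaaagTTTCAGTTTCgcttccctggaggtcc
These lie at chr1:1013368-1013415 (plus strand), chr19:17405729-17405776 (minus), chr10:89392491-89392545 (plus), chr10:89327825-89327900 (plus), chr15:88638931-88638972 (plus), chr7:93118090-93118131 (minus), chr3:122680794-122680835 (plus) and chr3:122564316-122564357 (minus). The core of PARP9, at chr3:122564332-122564341, is also the core found in the window of DTX3L, the gene that starts on the opposite strand beside it. XAF1, the member with the largest difference upon TP63 silencing in TE5, held no core in its window, whose 250 bases before the start (chr17:6755796-6756045, plus strand) read as follows.
XAF1: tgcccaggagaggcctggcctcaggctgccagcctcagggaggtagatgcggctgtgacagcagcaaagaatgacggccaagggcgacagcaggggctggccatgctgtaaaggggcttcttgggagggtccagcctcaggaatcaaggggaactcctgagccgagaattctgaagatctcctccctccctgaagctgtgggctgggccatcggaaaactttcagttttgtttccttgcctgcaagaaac
That says only that these letters, in this spacing, are not in this window. The other members with a window and no core were OAS1, SAMD9L, CMPK2, HERC6, IFI35, STAT2, IRF1 and IRF9.

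Libraries held 68532611 to 98036494 estimated counts. Intervals are exact (Clopper-Pearson) 95% intervals that cover counting error only. Against scramble, TP63 had 6847 normalized counts upon its own silencing in TE5 (scramble 26598) and 12571 in KYSE140 (scramble 48515). SOX2 had 4716 in TE5 (scramble 11903) and 22149 in KYSE140 (scramble 28899). The silencing of SOX2 was thus shallower in KYSE140 (log2 fold change -0.38) than in TE5 (-1.34), and CCAT1 itself was not analysed here, so its silencing is unchecked. With shTP63, SOX2 had 7955 normalized counts in TE5, below scramble, and 29854 in KYSE140, which was not. In each line the knockdown libraries ran in 1 lane of 1 flow cell, while the scramble library ran in another lane and, for TE5, on another flow cell, so lane and silencing are confounded in every comparison with scramble. The knockdown libraries of a line are also compared with the same scramble library. Squamous markers (KRT5, KRT14, KRT6A, DSG3, TP63, SOX2) summed to between 406 and 1207 TPM in TE5 and between 8189 and 17820 TPM in KYSE140, with KRT14 at 7 to 29 normalized counts in TE5. Among markers of other cells, PTPRC, CD3E, PDGFRB and CLEC4C stayed at 30 normalized counts or fewer in the TE5 libraries, while CD68 lay between 3850 and 7857. In KYSE140, CD68 lay between 252 and 1525 normalized counts, and PTPRC and CD3E at 7 or fewer. Markers of fibroblasts (COL1A1, COL3A1, PDGFRB) summed to 13.2 to 25.8 TPM in TE5 and 32.7 to 44.6 TPM in KYSE140, and those of plasmacytoid dendritic cells (CLEC4C, IL3RA) to at most 2.98 and 1.09 TPM. IFNK, IFNA2 and IFNG were listed at 0 in every library.

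The strongest difference was between the lines. In TE5 the 41 members together held 7176 TPM (abundance corrected for the length of each transcript and for sequencing depth) in the scramble library, 13645 with shTP63, 5124 with shSOX2 and 7446 with shCCAT1. In KYSE140 they held 374, 463 and 440 TPM with scramble, shTP63 and shSOX2. The median member lay at 87.1 TPM in TE5 scramble and at 2.93 TPM in KYSE140 scramble. For 40 of the 41 members every TE5 library was above every KYSE140 library, as it was for 33.8% of all features kept. In RNA of whole cultures, a larger share of responding cells and more RNA per cell cannot be told apart. The lines were also never sequenced in a shared lane.

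**Figure D1:**
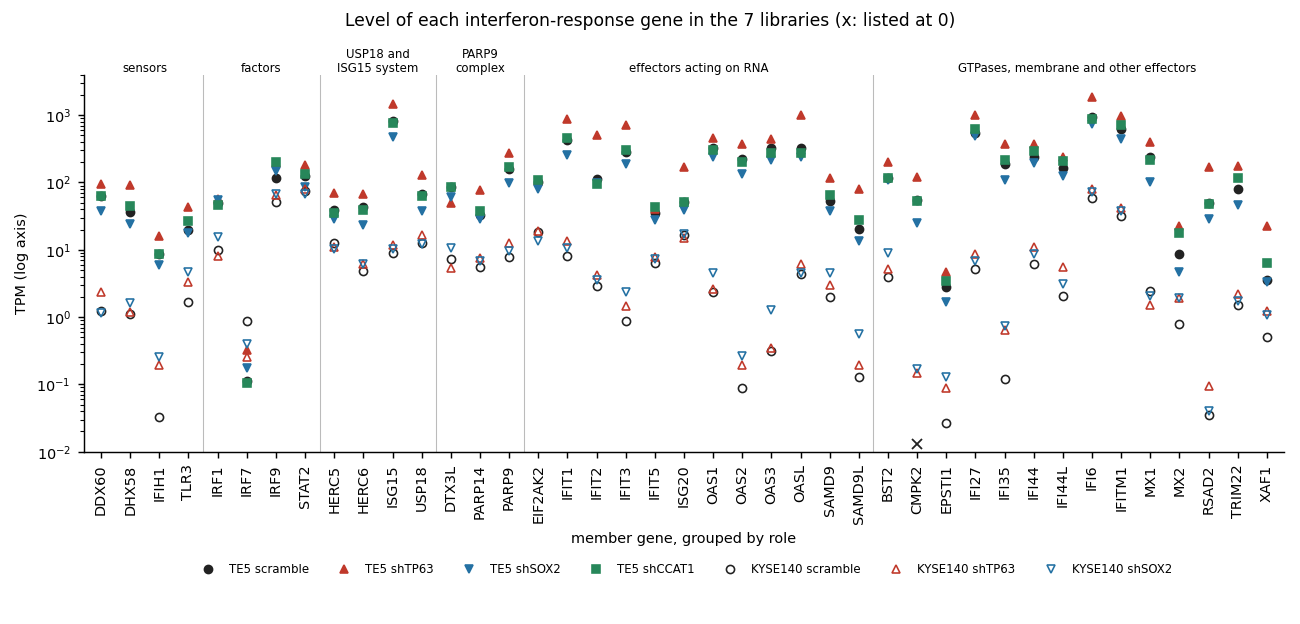
TPM of the 41 members (log axis) in the 4 TE5 libraries (filled symbols) and the 3 KYSE140 libraries (open symbols), grouped by role; the cross marks CMPK2, listed at 0 in KYSE140 scramble. Filled symbols lie above open ones for 40 members, the exception being IRF7, and TE5 shTP63 (filled upward triangles) is the highest library for most of them.

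In edgeR's quasi-likelihood fit of 6 libraries (scramble, shTP63 and shSOX2 of both lines, shCCAT1 left out, lines matched by shRNA), 40 of 41 members were lower in KYSE140 at a Benjamini-Hochberg adjusted p under 0.1, and 0 were higher. Of all 26076 features tested, 33.4% were lower and 30.7% higher by this rule. These p-values measure how the line difference varied over scramble, shTP63 and shSOX2, not a spread between lines or between cultures. The median member had a log2 fold change of -4.82, that is 28.3-fold lower in KYSE140, and the fitted values ran from -10.59 to 1.54 with standard errors of 0.11 to 0.88. OAS2, one of the synthases of the oligoadenylates that activate RNase L, differed most (log2 fold change -10.59, standard error 0.34, adjusted p = 1.404e-05). It was followed by RSAD2 (log2 fold change -9.97, standard error 0.27, adjusted p = 1.163e-05), CMPK2 (log2 fold change -9.50, standard error 0.53, adjusted p = 5.343e-05), OAS3 (log2 fold change -9.32, standard error 0.43, adjusted p = 3.226e-05) and IFI35 (log2 fold change -8.64, standard error 0.60, adjusted p = 0.0001049). MX1, IFIT3, SAMD9L, OAS1 and OASL came next with log2 fold changes of -8.24, -7.60, -6.81, -6.75 and -6.12. The smallest of the called differences was that of STAT2 (log2 fold change -0.65, standard error 0.20, adjusted p = 0.0333), followed by IRF9 (log2 fold change -1.11, standard error 0.15, adjusted p = 0.00138), so these parts of ISGF3 differed less between the lines than the effector genes named above. IRF7 was the only member not called (log2 fold change 1.54, standard error 0.88, adjusted p = 0.181), at 3 to 13 normalized counts in TE5 and 12 to 40 in KYSE140. Without any 1 library, 39 to 41 members were called.

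Upon TP63 silencing in TE5 most members were higher than in scramble. The log2 fold change was above 0 for 39 of 41 members, with a median of 0.71, against a median of 0.04 over all features and of -0.15 over the 10088 features with a mean of at least 1000 normalized counts. It was above 1 for 13 members, namely XAF1, IFIT2, SAMD9L, IRF7, RSAD2, ISG20, OASL, DHX58, IFIT3, PARP14, MX2, TRIM22 and TLR3. Of all features, 15.6% lay above 1, and 1.82% of those with a mean of at least 1000 normalized counts, a filter not applied to the members. With at least 100 counts in the library where they were higher, 12 of 40 members and 1088 of 17078 features lay above 1. DTX3L alone lay below -1, where 7.57% of features did, and EIF2AK2 was the other member below 0 (-0.14). This comparison has no replicate check. Markers that moved with it were CDH5 of endothelium, from 282 to 1370 normalized counts, and COL3A1 of fibroblasts, from 75 to 467, and CD3E of T cells went from 3 to 30. CD68 of macrophages went from 5761 to 7857. The squamous markers went from 1207 to 406 TPM in sum, with KRT5 at 20348 normalized counts against 71254 and KRT6A at 5978 against 37778, and the part of any of these in the result was not tested. With library totals in place of the TMM factors the median of all features was 0.19 in this comparison and 0.15 in that of shCCAT1, and at most 0.08 in the other comparisons with scramble. The directions of the members' medians were kept, except that the median upon CCAT1 silencing, near 0, became -0.01 with DESeq2 size factors.

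Upon SOX2 silencing in TE5 the members were lower than in scramble. The log2 fold change was below 0 for 38 of 41 members, with a median of -0.50 against 0.00 over all features. It was below -1 for MX1 and CMPK2, where 8.2% of features lay, and above 1 for 0 members (9.35% of features). With at least 100 counts in the library where they were higher, 2 of 40 members and 329 of 16054 features lay below -1. Above 1 lay 0 of these members and 285 of these features. IRF1, IRF7 and IRF9, all transcription factors, were the members above 0. In this library too COL3A1 (410 normalized counts) and CDH5 (723) were above scramble, and KRT6A had 5128 against 37778. Their part in the result was not tested. Upon CCAT1 silencing in TE5 the members stayed close to scramble. The values ran from -0.39 to 0.82 with a median of 0.02 (21 above 0 and 20 below), and 0 members lay above 1 or below -1, where 12.1% and 10.7% of features lay. Of the 16814 features with at least 100 counts in the library where they were higher, 449 lay above 1 and 444 below -1, beside 0 of 40 such members.

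**Figure D2:**
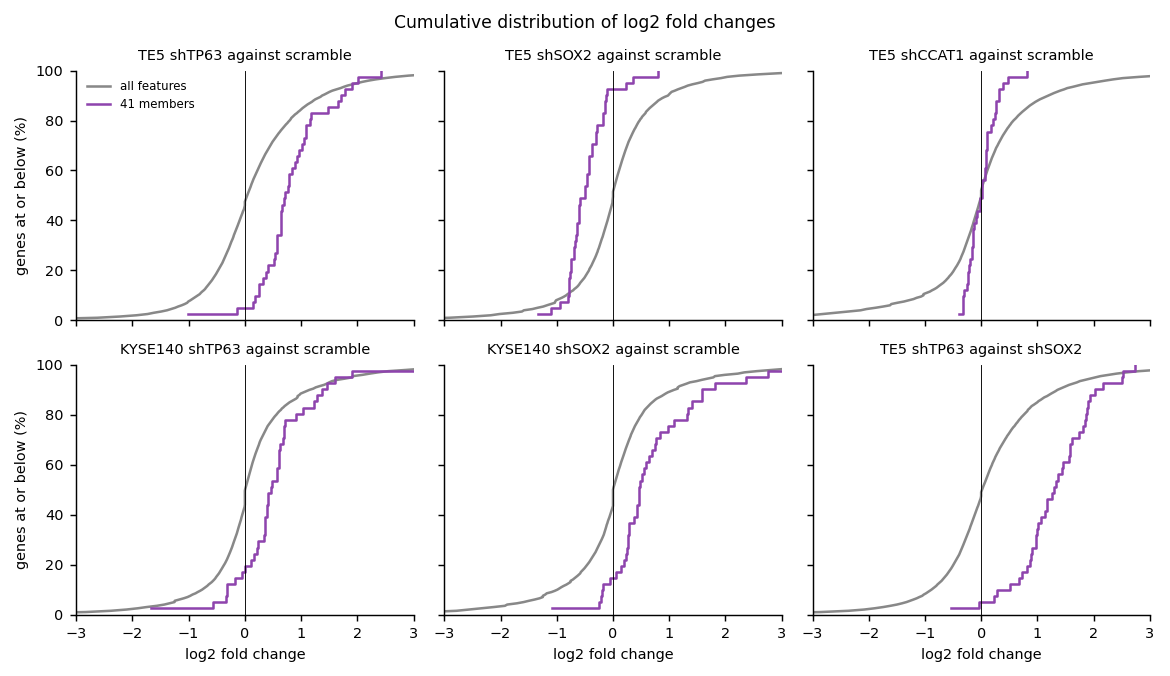
Cumulative share (%) of the 41 members (purple steps) and of all features (grey line) at or below each log2 fold change, for the 5 comparisons with scramble and for TE5 shTP63 against shSOX2. Over most of its range the members' curve lies to the right of the grey line for TE5 shTP63 (median 0.71) and for both KYSE140 comparisons (0.47 each), to the left for TE5 shSOX2 (-0.50), and crosses it near 0 for TE5 shCCAT1.

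In KYSE140 both silencings gave the same median, 0.47, against 0.00 over all features. Upon TP63 silencing 34 of 41 members lay above 0. The value was above 1 for 8 members (CMPK2, IFIH1, EPSTI1, OAS2, IFI44L, RSAD2, IFI35 and SAMD9L, where 11.4% of features lay) and below -1 for IRF7 alone (7.15% of features). Upon SOX2 silencing 35 lay above 0, 10 above 1 (CMPK2, IFIH1, IFI35, SAMD9L, IFIT3, TLR3, OAS1, SAMD9, BST2 and OAS2, where 10.7% of features lay) and again IRF7 alone below -1 (9.86% of features). Many of these members had few counts in KYSE140, and those of IFIH1 leave out an unassigned transcript that may belong to it. Among the 32 that reached 100 counts in the library where they were higher, the median was 0.40 upon TP63 silencing, with 1 above 1 (IFI44L, where 2.26% of features with as many counts lay). It was 0.47 upon SOX2 silencing, with 6 above 1 (SAMD9L, IFIT3, TLR3, OAS1, SAMD9 and BST2, where 2.69% of such features lay). In the same libraries CD68 had 252 normalized counts with shTP63 and 1525 with shSOX2 against 815 in scramble, and KRT14 24602 and 158129 against 80294. Their part in the result was not tested. RSAD2 and SAMD9L lay above 1 in both lines upon TP63 silencing, in KYSE140 on 20 against 8 and 80 against 39 normalized counts. The difference between the lines in the effect of SOX2 silencing was not tested.

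**Figure D3:**
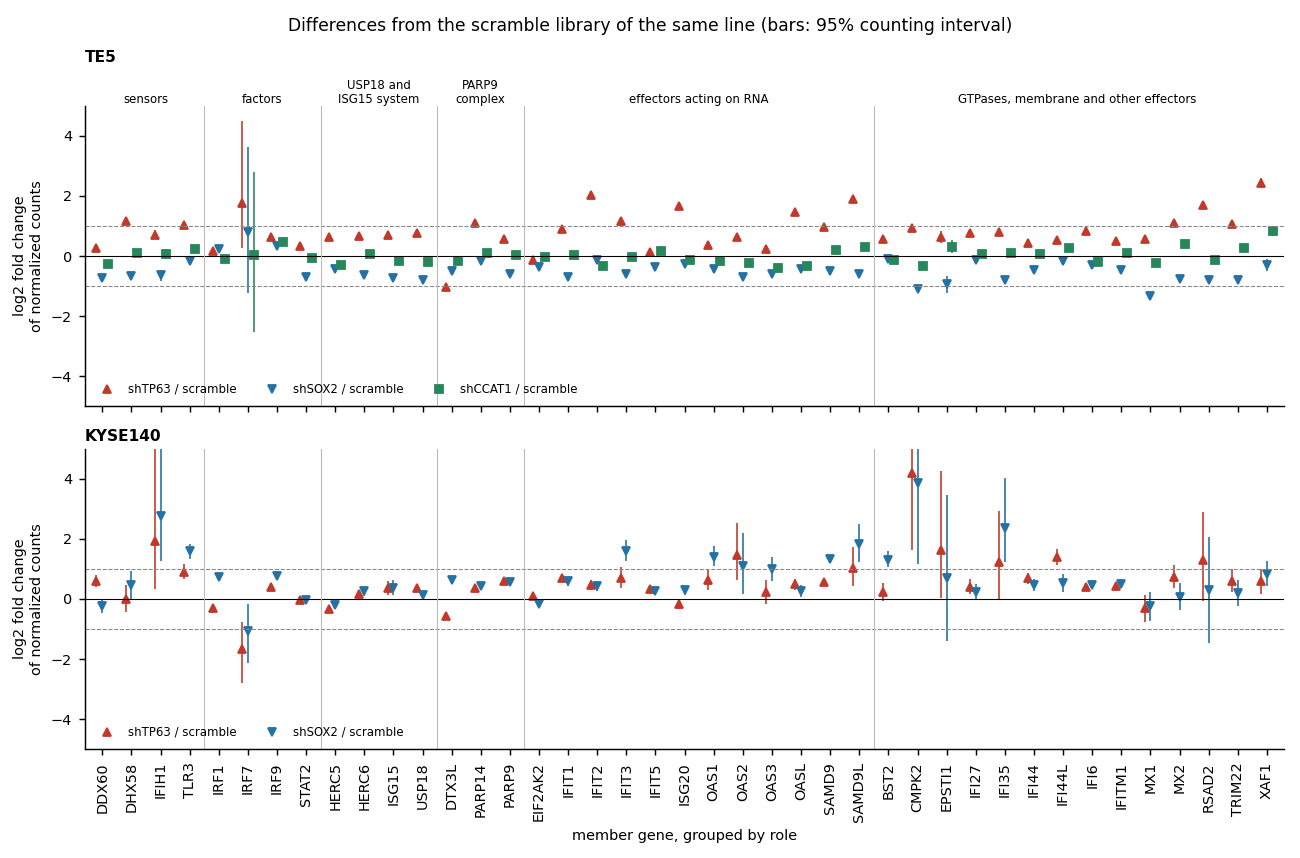
log2 fold change of normalized counts against the scramble library of the same line for each member, in TE5 (top) and KYSE140 (bottom), with 95% counting intervals as bars (a bar that reaches the edge goes on beyond it) and dashed lines at -1 and 1. In TE5 shTP63 lies above shSOX2 for 39 members, while in KYSE140 it does so for 18, and the intervals of CMPK2, IFIH1, IRF7 and EPSTI1 are wide.

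The shTP63 and shSOX2 libraries of a line shared flow cell and lane, so their direct comparison is free of the scramble library. In TE5, SOX2 itself was below scramble in both libraries, and its part in the result was not tested. In TE5 the members were higher with shTP63 than with shSOX2: 39 of 41 lay above 0, the median was 1.30, and 27 lay above 1. Of all features 15.0% lay above 1, and 2.38% of those with a mean of at least 1000 normalized counts, a filter not applied to the members. None of the 41 lay below -1, where 8.29% of features did. With at least 100 counts in the library where they were higher, 27 of 40 members and 1191 of 17106 features lay above 1. Below -1 lay 0 of these members and 783 of these features. In KYSE140 the same comparison had a median of -0.06, with 18 members above 0 and 23 below. There RSAD2 alone lay above 1 (12.5% of features), on 20 and 9 normalized counts, and DTX3L, IFI35, BST2 and IRF1 lay below -1 (9.4% of features). The shCCAT1 library of TE5, also of that lane, lay between the others. Against shTP63 its median was -0.75, with 0 members above 1 and 11 below -1 (10.6% and 16.3% of features). Against shSOX2 its median was 0.55, with 5 members above 1 and 0 below -1 (12.4% and 12.3% of features). Only features with at least 100 counts in the library where they were higher were then taken. Against shTP63, 0 of 40 members lay above 1 and 10 below -1, beside 844 and 1293 of 17502 features. Against shSOX2, 5 of 40 lay above 1 and 0 below -1, beside 697 and 674 of 16901 features.

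**Figure D4:**
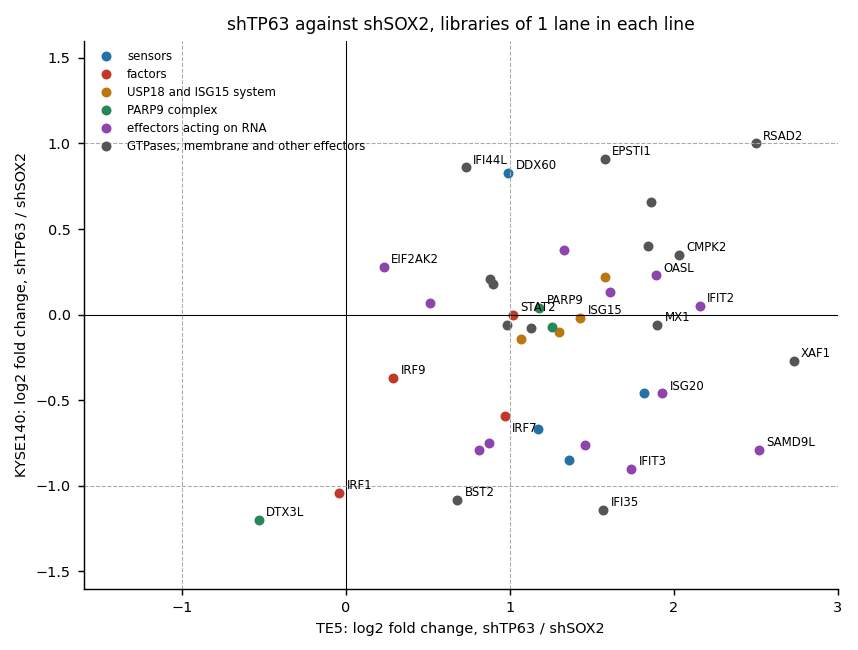
log2 fold change of shTP63 against shSOX2 in TE5 (horizontal axis) and KYSE140 (vertical axis), 1 point per member, coloured by role, with dashed lines at -1 and 1. The TE5 values lie above 1 for 27 members, whereas the KYSE140 values scatter around 0, and DTX3L and IRF1 lie below 0 in both.

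With both lines in the edgeR fit, cell line as the block and the lines serving as replicates, 0 members were called upon TP63 silencing, as were 0.0% of all features. TP63 itself was not called either (log2 fold change -1.94, standard error 0.13, adjusted p = 0.1155). A count of 0 is thus no sign that the members did not change. At an unadjusted p under 0.05, 12 members were higher and 1 was lower (5.43% and 7.81% of all features), with a median of 0.65 over the 41. With DESeq2 5 were called higher and 1 lower. The share of all features called is not given for DESeq2 or for the fits without 1 library. Those counts therefore show nothing particular to the members. The lowest adjusted p-values of the edgeR fit belonged to RSAD2 (log2 fold change 1.64, standard error 0.26, adjusted p = 0.153), IFI44L (log2 fold change 0.93, standard error 0.21, adjusted p = 0.196), IFI27 (log2 fold change 0.63, standard error 0.20, adjusted p = 0.279), DTX3L (log2 fold change -0.80, standard error 0.26, adjusted p = 0.288) and MX2 (log2 fold change 0.96, standard error 0.31, adjusted p = 0.291). Without 1 of the libraries the number called was 1 (TE5 shTP63 left out), 5 (TE5 shSOX2), 16 (KYSE140 shTP63), 6 (KYSE140 shSOX2) or 0 (either scramble library). Upon SOX2 silencing 0 members were called by edgeR, as were 0.0537% of all features, with 1 higher and 2 lower at an unadjusted p under 0.05 (3.7% and 4.92% of all features) and 0 called by DESeq2. SOX2 itself was not called there by edgeR (log2 fold change -0.88, standard error 0.23, adjusted p = 0.4004). DDX60 (log2 fold change -0.52, standard error 0.16, adjusted p = 0.481) had the lowest adjusted p of the members there, followed by IRF9 (log2 fold change 0.54, standard error 0.19, adjusted p = 0.529), RSAD2 (log2 fold change -0.70, standard error 0.28, adjusted p = 0.572), EIF2AK2 (log2 fold change -0.29, standard error 0.13, adjusted p = 0.615) and MX1 (log2 fold change -0.91, standard error 0.43, adjusted p = 0.639). Without TE5 shSOX2 the number called was 6, all higher, and without TE5 shTP63 it was 1, lower, while it was 0 without any other library.

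Between shTP63 and shSOX2, 2 members were called higher with shTP63 in the edgeR fit over both lines and 0 lower, where 0.924% and 1.4% of all features were. They were RSAD2, or viperin, which makes a chain-terminating nucleotide (log2 fold change 2.34, standard error 0.28, adjusted p = 0.0425), and DDX60, a helicase that assists the RNA sensors (log2 fold change 0.95, standard error 0.16, adjusted p = 0.0746). Both were higher with shTP63 in both lines, RSAD2 with log2 fold changes of 2.50 in TE5 and 1.00 in KYSE140, and DDX60 with 0.99 and 0.83. The KYSE140 value of RSAD2 rests on 20 and 9 normalized counts, so its call rests mainly on TE5. The number called was 0 without either scramble library, 1 (lower) without TE5 shSOX2, 22 without KYSE140 shTP63 and 19 without KYSE140 shSOX2. Neither the call of RSAD2 nor that of DDX60 held under all 12 edgeR alternatives. The number called was 10 with DESeq2, and 0 both in the edgeR fit without the replicate block of cell line and with transcripts matched by ID only. Here too the share of all features called is not given for the alternatives.

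Sensors were higher with shTP63 in TE5 as a group, all 4 above 0 with a median of 0.87, and lower with shSOX2, all 4 below 0 with a median of -0.65. In the sentences that follow, TE5 values are in the order scramble, shTP63, shSOX2 and shCCAT1, and KYSE140 values in the order scramble, shTP63 and shSOX2. TLR3, the endosomal receptor of double-stranded RNA, had 19.7, 42.6, 18.0 and 26.6 TPM in TE5 and 1.65, 3.27 and 4.71 TPM in KYSE140. Its highest level was that of TE5 shTP63 (log2 fold change 1.02, interval 0.95 to 1.09), and in KYSE140 it was higher with either silencing. DHX58 (LGP2), a regulator of the RNA sensors, had 36.6, 92.7, 24.4 and 44.0 TPM in TE5 and 1.12, 1.20 and 1.63 TPM in KYSE140, with a log2 fold change of 1.17, interval 1.11 to 1.23 in TE5 shTP63. DDX60 had 63.7, 93.7, 38.0 and 62.5 TPM in TE5 and 1.22, 2.36 and 1.13 TPM in KYSE140, and it was the sensor whose TE5 shTP63 value differed least from scramble (0.26, interval 0.23 to 0.28). IFIH1 (MDA5), which recognises long double-stranded RNA, had 8.59, 16.3, 5.84 and 8.79 TPM in TE5 and 0.0333, 0.192 and 0.257 TPM in KYSE140. Its KYSE140 libraries rested on 3, 15 and 27 normalized counts. The IFIH1 values come from 2 matched transcripts, of 567 and 1617 bases. A transcript of 3595 bases listed between FAP and IFIH1 was assigned to neither gene by the rules used here, which does not show that it belongs to neither. It held 9973, 17822, 7711 and 9779 normalized counts in TE5 and 487, 786 and 562 in KYSE140. These exceed the IFIH1 counts of every library, so if it is an IFIH1 transcript, the IFIH1 values miss most of the reads. The KYSE140 differences of IFIH1 hold only without it.

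The 4 transcription factors did not go the same way. STAT2 had 123, 184, 86.6 and 134 TPM in TE5 and 74.0, 78.6 and 67.0 TPM in KYSE140, with log2 fold changes of 0.33, -0.69 and -0.08 against scramble in TE5 and of -0.05 and -0.05 in KYSE140. Protein-coding transcripts held 36.5%, 28.4%, 25.7% and 30.2% of its counts in TE5, and with these alone the TE5 values were 0.06, -1.15 and -0.24, so that the higher value with shTP63 rests on its other transcripts. IRF9, the DNA-binding part of ISGF3, had 115, 198, 146 and 198 TPM in TE5 and 50.4, 66.2 and 68.5 TPM in KYSE140, and it was above scramble with every shRNA in both lines (0.64, 0.35 and 0.48 in TE5, 0.39 and 0.76 in KYSE140), a direction shared by knockdown libraries of all targets, with which lane is confounded. IRF1, an early activator of the same promoters, had 49.8, 57.4, 55.2 and 45.7 TPM in TE5 and 9.84, 8.07 and 15.2 TPM in KYSE140. In KYSE140 its value was higher with shSOX2 (0.74, interval 0.61 to 0.87) and lower with shTP63 (-0.31, interval -0.45 to -0.17). IRF7, which amplifies interferon production, was near the floor of detection in TE5 with 3, 13, 6 and 3 normalized counts, so that its log2 fold change of 1.78, interval 0.28 to 4.49 rests on a handful of reads. In KYSE140 it had 40, 12 and 18 normalized counts.

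The ISG15 system went the same way as the sensors in TE5. All 4 genes lay above 0 with shTP63 (0.64 to 0.78) and below 0 with shSOX2 (-0.80 to -0.43), and all 4 exceeded 1 in the same-lane comparison of the silencings (1.07 to 1.58). ISG15, a ubiquitin-like modifier secreted and conjugated upon infection, had 809.6, 1464, 478 and 777 TPM in TE5 and 8.97, 11.8 and 10.4 TPM in KYSE140, from 1 transcript assigned by locus and exon length. USP18, the protease that removes ISG15 and blocks the interferon receptor, had 67.0, 129, 37.8 and 63.2 TPM in TE5 and 12.6, 16.6 and 12.3 TPM in KYSE140. The ligase genes went the same way in TE5 and stayed within 0.34 of scramble in KYSE140. HERC5, the main ISG15 ligase, had 38.5, 68.6, 28.8 and 35.5 TPM in TE5 and 12.8, 10.9 and 10.1 TPM in KYSE140. HERC6, its neighbour on chromosome 4 (chr4:89299891-89364249 for HERC6 and chr4:89378270-89427314 for HERC5, GRCh37), had 42.6, 68.2, 23.6 and 39.3 TPM in TE5 and 4.82, 6.17 and 6.09 TPM in KYSE140.

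In the PARP9 complex, genes that sit side by side went in opposite directions with shTP63. PARP9, an ADP-ribosyltransferase family member that acts with the ubiquitin ligase DTX3L on interferon signalling, had 157, 278, 98.5 and 173 TPM in TE5 and 7.75, 12.4 and 9.65 TPM in KYSE140. DTX3L had 87.1, 48.7, 60.5 and 85.0 TPM in TE5 and 7.19, 5.28 and 10.6 TPM in KYSE140, and it was lower with shTP63 in both lines (-1.02, interval -1.05 to -0.99 in TE5, -0.56, interval -0.65 to -0.47 in KYSE140). PARP9 was higher in the same libraries (0.57, interval 0.55 to 0.59 in TE5, 0.60, interval 0.51 to 0.70 in KYSE140), and the windows of both genes contain the shared ISRE core printed above. The main DTX3L transcript, of 5868 bases, went from 26853 to 13214 normalized counts in TE5 and from 2669 to 1797 in KYSE140. In the same-lane comparison with shSOX2, DTX3L was lower too (-0.53 in TE5, -1.20 in KYSE140), while its edgeR result upon TP63 silencing was not past the threshold. With TPM in place of counts, with library totals or with protein-coding transcripts only, its TE5 value did not lie below -1. PARP14, a larger relative on the other side of the locus (chr3:122399686-122449687, with chr3:122283185-122294050 for DTX3L and chr3:122246771-122283424 for PARP9, GRCh37), had 32.4, 77.3, 28.3 and 38.2 TPM in TE5 and 5.63, 7.57 and 6.77 TPM in KYSE140, with a TE5 shTP63 value of 1.09, interval 1.06 to 1.11.

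Of the 12 effectors that act on RNA, 11 lay above 0 with shTP63 in TE5 (median 0.93, 5 above 1), and all 12 lay below 0 with shSOX2 (median -0.46). The IFIT genes, whose proteins bind viral RNA, are neighbours on chromosome 10 (IFIT2 at chr10:91043451-91069028, IFIT3 at chr10:91087064-91137230, IFIT1 at chr10:91152303-91166244 and IFIT5 at chr10:91174325-91181362, GRCh37) and differed by unequal amounts. IFIT2 had 111, 502, 99.0 and 95.5 TPM in TE5 and 2.93, 4.19 and 3.52 TPM in KYSE140, with a log2 fold change of 2.02, interval 2.00 to 2.04 upon TP63 silencing in TE5. IFIT3 had 282, 706, 186 and 299.8 TPM in TE5 and 0.867, 1.46 and 2.36 TPM in KYSE140 (1.16, interval 1.14 to 1.18). IFIT1, which senses RNA with an unmethylated cap, had 422, 885, 255 and 460.2 TPM in TE5 and 7.97, 13.6 and 10.7 TPM in KYSE140 (0.90, interval 0.89 to 0.92). IFIT5, with 34.8, 40.5, 27.5 and 42.8 TPM in TE5 and 6.42, 7.79 and 7.41 TPM in KYSE140, differed least (0.14, interval 0.09 to 0.19), and 19.9% of its counts were assigned by transcript length. The gradient from IFIT2 to IFIT5 was not present upon SOX2 silencing, where the values were -0.14, -0.58, -0.70 and -0.37 in the same order. It was also absent upon TP63 silencing in KYSE140. Normalized counts there went from 633 to 880, 130 to 211, 908 to 1478 and 1062 to 1349 in that order.

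The OAS genes, which make the second messenger of RNase L, were among the most abundant members in TE5 and did not exceed 4.45 TPM in KYSE140. OAS1 had 322, 462, 242 and 300.4 TPM in TE5 and 2.38, 2.58 and 4.45 TPM in KYSE140. OAS2 had 223, 378, 135 and 204 TPM in TE5 and 0.0891, 0.195 and 0.262 TPM in KYSE140. OAS3 had 323, 444, 219 and 278 TPM in TE5 and 0.309, 0.350 and 1.29 TPM in KYSE140. They form 1 cluster on chromosome 12 (OAS1 at chr12:113343661-113371024, OAS3 at chr12:113375856-113414265 and OAS2 at chr12:113416200-113449528, GRCh37), and none of them lay above 1 upon TP63 silencing in TE5 (0.38, 0.65 and 0.25 for OAS1, OAS2 and OAS3). OASL, a relative without synthase activity that lies apart on the same chromosome (chr12:121455566-121477049), had 323, 991, 237 and 278 TPM in TE5 and 4.31, 6.24 and 4.57 TPM in KYSE140. Its TE5 shTP63 value was 1.47, interval 1.45 to 1.48, an interval that lies above those of the 3 synthases. In KYSE140, OAS1 and OAS2 were higher with shSOX2 (1.41 and 1.08), in OAS2 on 18 and 39 normalized counts.

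SAMD9 and SAMD9L, neighbouring genes for proteins that restrain translation and poxviruses, both had their highest value in TE5 shTP63. SAMD9 had 53.2, 115, 37.1 and 65.8 TPM in TE5 and 1.96, 3.01 and 4.45 TPM in KYSE140. SAMD9L had 20.1, 81.2, 13.4 and 27.7 TPM in TE5 and 0.127, 0.192 and 0.567 TPM in KYSE140, with log2 fold changes of 1.91, interval 1.87 to 1.95 in TE5 and 1.03, interval 0.42 to 1.72 in KYSE140 upon TP63 silencing. In KYSE140 SOX2 silencing gave larger values for both (1.33 and 1.82), and in TE5 it gave values below 0 (-0.50 and -0.60). ISG20, an exonuclease of single-stranded RNA, had 51.1, 169, 38.8 and 51.3 TPM in TE5 and 16.5, 14.8 and 17.2 TPM in KYSE140, with 1.65, interval 1.58 to 1.73 in TE5 shTP63 and a value near scramble in KYSE140 shTP63 (-0.17). EIF2AK2 (PKR), the kinase that halts translation on double-stranded RNA, had 103, 104, 78.9 and 109 TPM in TE5 and 18.6, 19.2 and 13.6 TPM in KYSE140. Its log2 fold changes lay between -0.37 and 0.11 in the 5 comparisons with scramble, and in TE5 all 3 were below 0.

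All 14 remaining effectors lay above 0 with shTP63 in TE5 (median 0.78, 4 above 1) and below 0 with shSOX2 (median -0.62). XAF1 (ENSG00000132530, chr17:6658766-6678966, GRCh37), an antagonist of the apoptosis inhibitor XIAP, had 3.56, 22.3, 3.34 and 6.39 TPM in TE5 and 0.503, 1.22 and 1.08 TPM in KYSE140. Its TE5 shTP63 library held 2645 normalized counts against 489 in scramble, a ratio of 5.40 (2.43, interval 2.30 to 2.58), and its main transcript of 3623 bases went from 341 to 2084. XAF1 was also the member with the highest value upon CCAT1 silencing (0.82, interval 0.67 to 0.98). RSAD2 had 49.1, 170.1, 28.8 and 48.3 TPM in TE5 and 0.0347, 0.0939 and 0.0409 TPM in KYSE140 and CMPK2, a nucleotide kinase encoded beside it on chromosome 2, had 55.3, 119, 24.8 and 52.5 TPM in TE5 and 0, 0.147 and 0.170 TPM in KYSE140. RSAD2 stood at 1.71, interval 1.67 to 1.74 with shTP63 and CMPK2 at 0.92, interval 0.88 to 0.96 in TE5, and with shSOX2 at -0.79, interval -0.84 to -0.74 and -1.11, interval -1.17 to -1.05. In KYSE140 CMPK2 was listed at 0 in scramble against 17 and 13 normalized counts with shTP63 and shSOX2. Against a floor of 3 counts for scramble that is 4.21-fold and 3.26-fold higher, values that leave out the counting error of the silenced libraries.

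MX1 and MX2, dynamin-like GTPases that trap viral nucleocapsids, lie next to each other on chromosome 21 and differ in abundance. MX1 had 239, 395, 102 and 214 TPM in TE5 and 2.43, 1.53 and 2.06 TPM in KYSE140, and MX2 had 8.64, 22.7, 4.68 and 17.5 TPM in TE5 and 0.794, 1.95 and 1.89 TPM in KYSE140. MX1 was the member that stood lowest with shSOX2 in TE5, at 12835 normalized counts against 32336 in scramble (-1.33, interval -1.36 to -1.30), and its main transcript of 2850 bases went from 30259 to 11806. The shTP63 value of MX1 was 0.57 and that of MX2 1.09, interval 1.00 to 1.19. TRIM22, an antiviral ubiquitin ligase, had 78.6, 174, 45.8 and 116 TPM in TE5 and 1.51, 2.17 and 1.72 TPM in KYSE140 and a TE5 shTP63 value of 1.06, interval 1.02 to 1.10. BST2 (tetherin), which holds budding virus at the membrane, had 118, 202, 109.6 and 118 TPM in TE5 and 3.94, 5.11 and 8.90 TPM in KYSE140. In KYSE140 BST2 was higher with shSOX2 (1.31, interval 1.05 to 1.58) than with shTP63 (0.22, interval -0.06 to 0.52). IFITM1, which blocks viral fusion at the cell surface, had 619, 983, 439.5 and 709 TPM in TE5 and 31.6, 41.4 and 37.3 TPM in KYSE140.

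The most abundant member in TE5 scramble was IFI6, a small membrane protein, with 939, 1864, 750 and 874 TPM in TE5 and 58.6, 79.3 and 72.6 TPM in KYSE140. It was also the second most abundant member of KYSE140 scramble, after STAT2, with all transcripts of a gene summed. IFI27, a mitochondrial relative, had 551, 1019, 486 and 619 TPM in TE5 and 5.22, 8.51 and 6.77 TPM in KYSE140, and 98% of its counts were assigned by transcript length. IFI35 had 187, 368, 110.1 and 217 TPM in TE5 and 0.119, 0.634 and 0.738 TPM in KYSE140, where it rested on 8, 21 and 47 normalized counts. IFI44 and IFI44L, neighbours on chromosome 1 (chr1:79115481-79129763 and chr1:79085587-79111830, GRCh37), went together in TE5 (0.42 and 0.54 with shTP63, -0.47 and -0.18 with shSOX2). IFI44 had 241, 368, 194 and 298 TPM in TE5 and 6.06, 11.1 and 8.52 TPM in KYSE140. IFI44L had 167, 237, 126 and 211 TPM in TE5 and 2.07, 5.46 and 3.10 TPM in KYSE140, with a KYSE140 shTP63 value of 1.38, interval 1.12 to 1.65, the largest there among members with at least 100 counts. EPSTI1, the least abundant effector in TE5, had 2.83, 4.66, 1.67 and 3.49 TPM in TE5 and 0.0269, 0.0887 and 0.130 TPM in KYSE140, and its KYSE140 libraries held 4, 15 and 7 normalized counts.

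The medians of members with an ISRE core and of members without one were set side by side. In TE5 shTP63 the 24 members with a core had a median log2 fold change of 0.64 and the 9 with a window and no core one of 0.66. With shSOX2 the medians were -0.48 and -0.60, and with shCCAT1 0.00 and 0.07. In KYSE140 they were 0.42 and 0.58 with shTP63 and 0.48 and 0.84 with shSOX2. These are descriptions with no test, and the windows of 8 members were not searched.

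Other genes of the pathway were followed as a second list of 47 genes, of which 41 passed the minimum count. IKBKE and CCL5 had no matched transcript, and IFNK, IFNW1, IFNA2 and IFNG stayed at 7 estimated counts or fewer in every library. Upon TP63 silencing in TE5, 34 of the 41 lay above 0 (median 0.33), 9 above 1 and 0 below -1, where 15.6% and 7.57% of features lay. Interferon genes themselves were transcribed at low levels, and IFNL1 and IFNB1 had their highest values in that library. IFNL1, a type III interferon, had 143, 660, 116 and 90 normalized counts in TE5 and 4, 16 and 32 in KYSE140, a log2 fold change of 2.20, interval 1.94 to 2.47. IFNB1, the type I interferon made first by most cells, had 35, 158, 29 and 14 normalized counts in TE5 and 4, 22 and 1 in KYSE140 (2.13, interval 1.63 to 2.73). IFNE, the epithelial type I interferon, had 39, 143, 111 and 73 normalized counts in TE5 and 118, 208 and 199 in KYSE140 and was above scramble with every shRNA in both lines.

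The chemokines CXCL10 and CXCL11, which attract T cells, had larger differences upon TP63 silencing in TE5 than any member. CXCL10 had 808, 6165, 846 and 710 normalized counts in TE5 and 15, 69 and 38 in KYSE140, a log2 fold change of 2.93, interval 2.82 to 3.04 upon TP63 silencing in TE5. CXCL11 had 1226, 7204, 1098 and 1152 normalized counts in TE5 and 0, 1 and 0 in KYSE140 (2.55, interval 2.47 to 2.64). Upon SOX2 silencing in TE5 they stayed at 0.06 and -0.16, where the median of the members was -0.50. GBP1, a guanylate-binding protein more typical of interferon gamma, was 2.02, interval 1.92 to 2.14 with shTP63 in TE5, and UBE2L6, the conjugating enzyme of ISG15, 1.19, interval 1.16 to 1.22. In the edgeR fit over both lines CXCL11 was the 1 gene of this list called higher with shTP63 than with shSOX2 (log2 fold change 2.76, standard error 0.25, adjusted p = 0.0382), a call that rests on TE5, since the KYSE140 libraries held 0, 1 and 0 normalized counts. Of this list, 0 genes were called by edgeR upon TP63 or SOX2 silencing (8 higher and 1 lower at an unadjusted p under 0.05 upon TP63 silencing, 2 and 0 upon SOX2 silencing).

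Receptors, kinases and upstream adaptors lay nearer to 0. Upon TP63 silencing in TE5 the values were 0.33 and -0.41 for the type I receptor chains IFNAR1 and IFNAR2, 0.02 and 0.18 for the type III receptor chains IFNLR1 and IL10RB, 0.48 for JAK1, 0.20 for JAK2 and 0.14 for TYK2. The constitutive factors IRF3 and IRF2 lay at -0.13 and 0.16 upon TP63 silencing, and the RNA sensor DDX58 (RIG-I) at 0.24. Its adaptor MAVS was at -0.43. The DNA sensing genes MB21D1 (cGAS) and TMEM173 (STING) were at 0.14 and 0.48. SOCS1 and SOCS3, which inhibit the receptor kinases, went apart, at 0.60 and -0.81.

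Between the lines, 28 of these 41 genes were lower in KYSE140 and 8 higher by the edgeR test, with a median log2 fold change of -1.94. CXCL11 (log2 fold change -12.86, standard error 0.31, adjusted p = 9.587e-06) and IFITM3 (log2 fold change -10.18, standard error 0.19, adjusted p = 8.322e-06) differed most, while GBP1 (log2 fold change -0.99, standard error 0.57, adjusted p = 0.184) was not called. Also lower were the sensors DDX58 (log2 fold change -3.61, standard error 0.16, adjusted p = 3.015e-05) and MB21D1 (log2 fold change -2.20, standard error 0.14, adjusted p = 7.981e-05) and the adaptor TMEM173 (log2 fold change -3.99, standard error 0.30, adjusted p = 0.0001373). The first step of the pathway differed less: IFNAR1 and IFNAR2 had log2 fold changes of -1.05 and -1.01, and JAK1 (0.57), TYK2 (0.29) and IFNLR1 (1.39) were higher in KYSE140. JAK2 (log2 fold change -0.15, standard error 0.15, adjusted p = 0.403) and IRF3 (log2 fold change -0.12, standard error 0.11, adjusted p = 0.407) were not called.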

How the data were processed

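RNA of 7 cultures (4 of TE5, 3 of KYSE140) was sequenced by the authors as 100-base paired reads and quantified with Kallisto against Ensembl transcripts of hg19. The deposited files hold estimated counts per transcript and TPM, which the authors' software scales by length and depth. Estimated counts were summed to genes and rounded. Transcripts were assigned to genes by ID with GENCODE 44 lifted to GRCh37 (182863 of 196354, 93.6% of counts). Others were assigned where both neighbours in the file belonged to 1 gene (3.72%), by equal length beside a neighbouring gene (0.105%) or by the locus and exon length in the study's gene tables, from which no value was taken (0.042%), rules devised after the files were examined. Of transcripts matched by ID that lie between transcripts of 1 gene, the neighbour rule returned the right gene for 99.7%. The length convention of the last rule, on which ISG15 rests wholly, held for 217 of 274 single-transcript genes (79.2%). The remaining 2.55% of counts stayed as single transcripts.

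Within a line, log2 ratios of TMM-normalized counts plus 1 were computed for the 30559 features with at least 10 counts in at least 1 library, with exact (Clopper-Pearson) 95% counting intervals and a threshold of 1 in either direction. These differences have no replicate check, and no p-value was computed for them. Over both lines, edgeR 4.0.16 (R 4.3.3) fitted quasi-likelihood models to 6 libraries with line and shRNA as terms (26076 features, 2 residual degrees of freedom, common dispersion 0.0627). Calls needed a Benjamini-Hochberg adjusted p under 0.1, the threshold of the study's methods. In the shRNA contrasts the cell lines stand in for replicates, so p-values measure the spread between 2 lines and not between cultures of 1 line. In the contrast of the lines, p-values measure how the line difference varied over scramble, shTP63 and shSOX2. They measure no spread between lines or between cultures there. DESeq2 1.42.0 was an alternative. The scripts were tested on simulated counts. Promoter windows came from RefSeq (GRCh38.p14), gene positions from GENCODE 44 (GRCh37).

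The members and lists were chosen with earlier results of these data known. Named genes follow a written rule: every member is accounted for, with values in each library where the highest held at least 100 counts (all but IRF7). In the fits the members past the threshold are named, at most 10 per contrast, or else the 5 with the lowest p. Within a line those past 1 in both lines are named, and the 5 with the largest change each way. Other pathway genes are named only with at least 100 counts in the highest library. IFNK, IFNW1, IFNA2, IFNG, IKBKE and CCL5 fall outside it and are named to account for the list. The values of 1 gene of that list and of 1 cell type marker are not reported here. Tables were handled in pandas 2.3.3 under Python 3.11.15, intervals came from scipy 1.17.1 (numpy 2.4.6), and plots from matplotlib 3.10.9.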

Additional observations from a re-analysis of the deposited data

Results flagged for a closer look

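Upon TP63 silencing IRF7 was higher than scramble in TE5 (log2 fold change 1.78) and lower in KYSE140 (-1.67), on at most 40 normalized counts per library, and this difference between the lines was not tested. Upon SOX2 silencing CMPK2 was lower in TE5 (-1.11, 3249 against 7000 normalized counts) and higher in KYSE140 (3.85 with the pseudocount of 1). The KYSE140 value is that of 13 normalized counts against a library listed at 0. Against a floor of 3 counts it is 3.26-fold, with the counting error of the shSOX2 library left out. This difference between the lines was not tested either. Upon SOX2 silencing the median of the 41 members was -0.50 in TE5 and 0.47 in KYSE140, also untested. SOX2 itself was at -1.34 in TE5 and -0.38 in KYSE140 in the same libraries, and its part in the result was not tested.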

How the results depend on the processing

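The lines served as the pairing, with cell line as the replicate block. Without the replicate block, edgeR called 0 members in each of the 3 shRNA contrasts (0, 0 and 2 with it) and 41 between the lines (40 with it). Upon TP63 silencing the number called was 2 with no filter on low counts, 6 with DESeq2, and 0 to 16 when 1 library was left out. Upon SOX2 silencing it was 0 to 6 when 1 library was left out, where RSAD2 ran from -0.82 to 0.52 and MX1 from -1.51 to 0.02, the positive values being those without TE5 shSOX2. Between shTP63 and shSOX2 it was 9 with no filter, 10 with DESeq2, 0 with transcripts matched by ID only (an alternative chosen after seeing the data) and 0 to 22 when 1 library was left out. Between the lines it was 39 to 41 under every alternative run. When a library is left out, the lone sample of a condition is assumed to vary like the rest. The share of all features called was not set beside these counts, and the cause of the changes was not tested.

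Within a line, 101 of 120 counts of members stayed within 1.5 times their value. In TE5 shTP63, 0 members lay below -1 with library totals, TPM or protein-coding transcripts only (38 members). In TE5 shSOX2, 4 lay below -1 and so 4 past 1 in size with protein-coding transcripts only. In TE5 shCCAT1, 1 lay above 1 and so 1 past 1 in size with library totals and with TPM, and 1 below -1, again 1 past 1 in size, with protein-coding transcripts only, and the median was -0.01 with DESeq2 size factors. In KYSE140 shTP63, 3 lay above 1 and 4 past 1 in size with a pseudocount of 10, and 0 below -1 with at least 50 counts or protein-coding transcripts only. In KYSE140 shSOX2, 0 lay below -1 with a pseudocount of 10, at least 50 counts, TPM or protein-coding transcripts only. Depth limits IRF7 in TE5 and CMPK2, RSAD2, IFIH1, IFI35, EPSTI1 and OAS2 in KYSE140, each at no more than 51 normalized counts there. For IFIH1 this holds only without the unassigned transcript listed beside it.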
